A study of Homo sapiens with 12 samples.

Results

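The 2 human B-cell lymphoblastic leukemia lines REH and NALM-6 did not respond alike to 48 h in cerebrospinal fluid (CSF), the fluid that bathes the brain and spinal cord. The subject here is the difference of their responses, (REH CSF minus REH media) minus (NALM-6 CSF minus NALM-6 media), on the log2(CPM + 1) scale, where CPM are read counts scaled to a common library size. It is called the line difference below, and a gene is higher in REH where the line difference is positive, that is, where the REH response lies above the NALM-6 response. The line difference was tested in those 14364 of 60617 genes that reached 1 CPM in 3 or more of the 12 libraries, and 607 genes passed (Benjamini-Hochberg adjusted p under 0.05, limma). This was 4.23% of the genes tested. Of them, 435 genes were higher in REH (3.03% of the genes tested) and 172 were lower in REH (1.2%).

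Each line was kept for 48 h in CSF or in RPMI with 10% FCS (fetal calf serum), called media, and each of the 4 groups (REH CSF, REH media, NALM-6 CSF, NALM-6 media) held 3 libraries. The title of the series concerns methotrexate, an antifolate drug, but no label names a drug, so the groups differ in line and medium as far as the labels go. The CSF was human, and the labels do not say whether replicates were separate cultures, so a p-value here speaks of library-to-library spread, which may be technical. Each group is 1 cell line, so a difference between the lines is one between these 2 cultures and not between types of leukemia.

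Both lines are arrested at a B-cell precursor stage, at which transcription factors such as PAX5 and EBF1 set B-cell identity. Several stress pathways can change the state of such cells. The tumor suppressor p53 switches on genes of cell-cycle arrest, repair and apoptosis after damage or nutrient stress, whereas NF-kB and the immediate early factors FOS and EGR1 answer signals from the cell surface, cytokines and serum within a short time. Leukemic blasts in the CSF meet little protein, little cholesterol and few growth factors, and the central nervous system is a known site of relapse in acute lymphoblastic leukemia.

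Libraries held 23412869 to 37146556 reads, and 0 reads allow up to 0.0808 to 0.128 CPM (3 reads), which covers counting error only. Of the 12, REH CSF 3 and NALM-6 media 1 differed from their replicates. The ribosomal protein share of reads was 10.3% in REH CSF 3, against 5.72% and 6.25% in the other REH CSF libraries, and 21.9% in NALM-6 media 1, against 8.53% and 7.74% in the other NALM-6 media libraries. Results are therefore also given without these 2 libraries, as a fit to the remaining 10, and their part in the other results was not tested. The 8 markers fixed for B-lymphoblasts were all measured, and their summed level was 2029 to 2483 CPM in REH CSF, 3839 to 3992 CPM in REH media, 2811 to 2870 CPM in NALM-6 CSF and 3247 to 3373 CPM in NALM-6 media. Among markers of other cell types, CD3D, S100A8, HBB, SNAP25, AQP4 and TTR had no read in any library. Other members of most of the lists were expressed. Summed levels in REH CSF were 104 to 136 CPM for neutrophil markers, mostly MPO, and 112 to 137 CPM for monocyte and macrophage markers. In REH media these sums were 61 to 69.1 and 42.9 to 47.2 CPM. Neuron markers summed to 34 to 44 CPM in REH CSF and 26.7 to 28.8 CPM in REH media, and GAD1 was called among them. Oligodendrocyte markers summed to 112 to 121 CPM in NALM-6 CSF and 32.8 to 107 CPM in NALM-6 media. In REH the oligodendrocyte sums were 14.4 to 28.5 CPM in CSF and 29.5 to 33.5 CPM in media. AIF1, SLC17A7 and MBP had the highest levels of the monocyte, neuron and oligodendrocyte lists. TRAC, a T-cell receptor gene, made up most of a T and NK cell sum of 83.5 to 122 CPM in REH CSF, 24.2 to 25.9 CPM in REH media, 44.2 to 49.3 CPM in NALM-6 CSF and 8.62 to 13.9 CPM in NALM-6 media. The part of other cell types in the results was not tested. In bulk RNA of this kind, fewer cells of a type and less RNA per cell cannot be told apart.

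Called genes fell into classes of very different size. Genes were sorted by their mean over the 6 libraries of each line, with a mean of at least 5 CPM in both lines as expressed in both, and under 1 CPM in one line with at least 1 CPM in the other as silent in one line. Among the 9650 genes expressed in both lines, 95 were called (0.984%), 57 higher and 38 lower in REH. Among the 1543 genes silent in NALM-6, 311 were called (20.2%), 292 of them higher in REH, and among the 774 genes silent in REH, 68 were called (8.79%), 65 of them lower in REH. The 2397 genes between these classes gave 133 calls (5.55%). The calls outside the genes expressed in both lines are given as a description of levels, and their number is no result about the lines. On whole reads, edgeR called 40 of the 2397 genes between the classes. Libraries were simulated with the same ratio of CSF to media in both lines. There limma called 955 of 4696 unchanged genes not expressed in both lines (20.3%, classes pooled), no lower than the limma shares above. It also called 35 of 9468 unchanged genes expressed in both lines (0.37%, against 0.984% in the data), so some of the 95 calls may be of this kind. With edgeR, 2 of the 4696 and 19 of the 9468 were called. The simulation gave all libraries the same spread beyond counting, so its shares need not hold in the data. Its ratio of CSF to media was taken from NALM-6, with a floor for levels near 0. In genes silent in NALM-6 this ratio rested on few reads and could be extreme. The 20.3% therefore cannot say what share of the calls in the data is of this kind. Equal ratios at unequal levels are unequal differences on the log2(CPM + 1) scale. Without the 2 libraries that stood apart, 2198 genes were called (15.3% of the 14364), 1144 higher (7.96%) and 1054 lower in REH (7.34%). These included 605 of the 607, all in the same direction, and all 95 that were expressed in both lines. In that class the calls numbered 503 higher and 760 lower in REH. The share called higher among genes expressed in both lines was thus 60% with all 12 libraries and 39.8% without the 2, and it was 49.2% under median-of-ratios scaling, 45.5% under TMM scaling and 54.3% under quantile normalization.

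**Figure D1:**
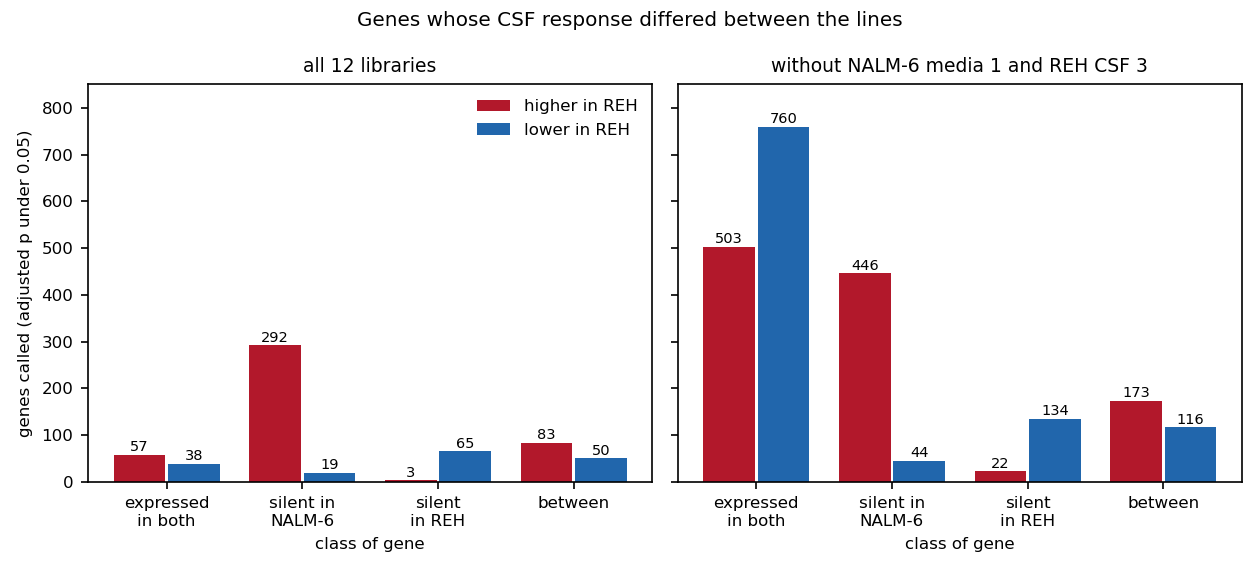
Number of genes whose line difference passed an adjusted p under 0.05 (y axis), by class of gene (x axis), higher in REH (red) and lower in REH (blue), with all 12 libraries (left) and with the 10 left after dropping REH CSF 3 and NALM-6 media 1 (right). With all 12 libraries the tallest bar is the 292 genes silent in NALM-6 and higher in REH, and without the 2 libraries it is the 760 genes expressed in both lines and lower in REH.

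The CSF response itself was called in 2144 genes in REH (14.9%) and in 1742 genes in NALM-6 (12.1%). Of the 95 called genes expressed in both lines, 33 changed in the same direction in both lines and more in REH, and 10 in the same direction and more in NALM-6. Another 33 had a called response in REH alone and 18 in NALM-6 alone, and 1, CLEC2D, in neither. No gene of the 95 had 2 called responses of opposite direction in limma, although 33 had opposite signs and 12 of them an unadjusted p under 0.05 in both lines. Called opposite responses in this class numbered 3 of 54 calls with edgeR, 21 of 339 with DESeq2, 4 of 122 under median-of-ratios scaling, 5 of 123 under TMM scaling, 2 of 129 under quantile normalization and 87 of 1263 in limma without the 2 libraries. For all 57 and all 38 genes, the 9 single-library differences of CSF and media in REH lay on one side of the 9 in NALM-6, and 22.4% of all genes tested had this separation. The genes were called from the same differences, so nothing is read from this count.

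The mean level in media was lower in REH than in NALM-6 for 51 of the 57 genes higher in REH, and in CSF it was higher in REH than in NALM-6 for 42 of them. Over all 9650 genes expressed in both lines, the mean log2(CPM + 1) in media was lower in REH for 3526. The mean CPM in media, another scale, was higher in REH for 5789, so these counts do not add up to 9650. The line difference contains the media levels, so a called gene is more likely to show this order and nothing is read from it. The median line difference of the 57 was 1.27, with a median response of 1.93 in REH and 0.66 in NALM-6. The 38 genes lower in REH had a median line difference of -1.35, with a median response of -0.14 in REH and 1.35 in NALM-6, and in media 29 of them had a higher mean CPM in REH than in NALM-6. The median line difference of all genes tested was -0.14 and that of all genes expressed in both lines -0.24. Rescaling moved the first of these to 0.02 (median-of-ratios), -0.03 (TMM) and 0.01 (quantile), and it was -0.0002 without the 2 libraries, so a line difference near -0.14 lies in the middle of the genes tested.

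**Figure D2:**
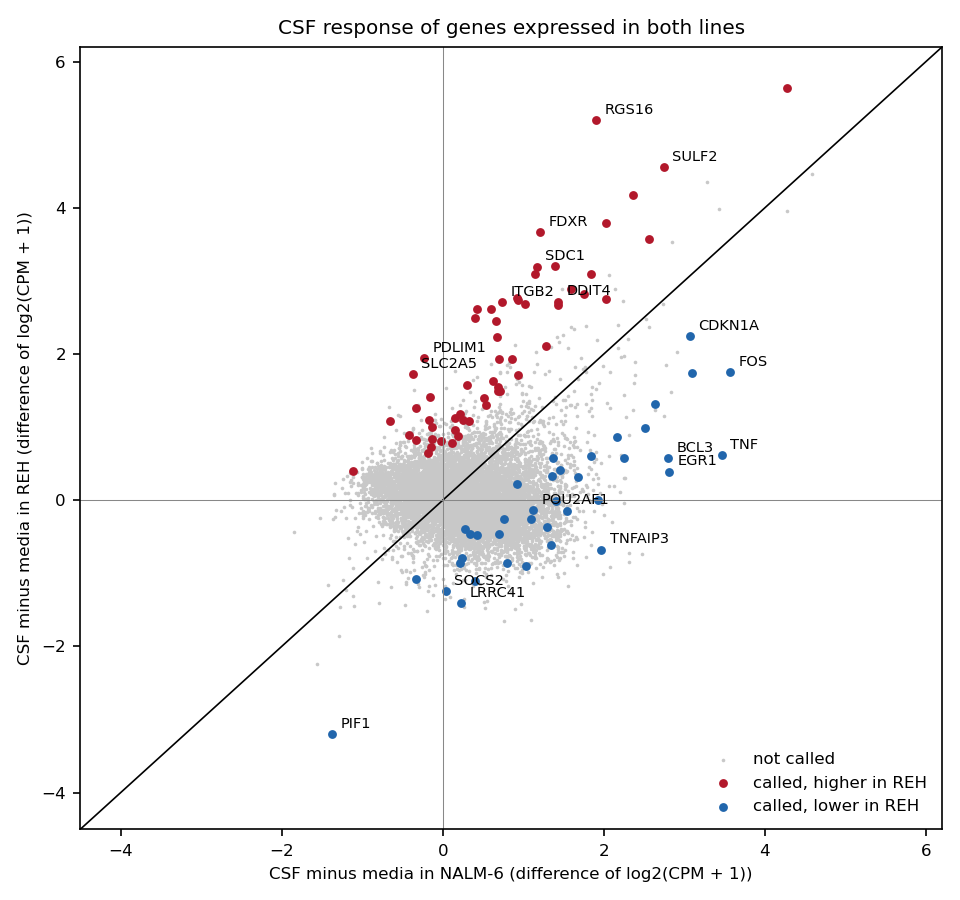
Difference of CSF and media in log2(CPM + 1) for the 9650 genes expressed in both lines, in REH (y axis) against NALM-6 (x axis), with the diagonal of equal responses. The 57 genes called higher in REH (red) lie above the diagonal and mostly to the right of 0, while the 38 called lower in REH (blue) lie below it, with a median REH response of -0.14.

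RGS16 (chr1:182598623-182604408 in GRCh38), which speeds up the GTPase of G protein alpha subunits and so shortens signals from receptors, had the largest positive line difference of the genes expressed in both lines. Its level was 38.7, 44.2 and 39.4 CPM in the 3 REH CSF libraries and 0.209, 0.106 and 0.0992 CPM in the REH media libraries. NALM-6 CSF held 346, 327 and 324 CPM and NALM-6 media 73.7, 93.8 and 98.6 CPM. RGS16 was thus close to 0 in REH media only (12 reads over the 3 libraries), and no pair of groups overlapped. The line difference was 3.29 (SE 0.19, adjusted p = 9.42e-06), with a response of 5.20 in REH and 1.91 in NALM-6. With a mean of 0.138 CPM in REH media, the size of RGS16 was set by the pseudocount, and the line difference was 6.41 in edgeR and 1.30 to 6.52 over all alternatives, with the call kept in each. In CPM the order was reversed, since the mean rose by 40.6 CPM in REH and by 244 CPM in NALM-6. This was so for 5 of the 57 genes, RGS16, SDC1, HBEGF, JDP2 and EMP2, whose larger response in REH is a statement about ratios.

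No list held more genes higher in REH than the targets of p53. Of the 26 measured p53 targets, 8 were higher and 1 lower in REH, and without the 2 libraries 21 were higher and 2 lower. Over all genes tested, 3.03% were higher with all libraries and 7.96% without the 2. The 8 include PLK2, silent in NALM-6, and GDF15, which lies between the classes. The list had a median line difference of 0.53, against -0.14 for all genes, with a median response of 2.32 in REH and 2.05 in NALM-6. It was 7 higher and 1 lower under median-of-ratios and TMM scaling, 7 and 2 under quantile normalization, and 2 and 0 with edgeR. The list was written with earlier results of these data known and is described here, not tested.

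FDXR (chr17:74862497-74873031), the mitochondrial ferredoxin reductase and a p53 target, had 154, 227 and 290 CPM in REH CSF and 16.9, 16.6 and 14.8 CPM in REH media. Its level was 88.9, 80.0 and 79.6 CPM in NALM-6 CSF and 65.8, 27.2 and 24.4 CPM in NALM-6 media. The high REH CSF library and the high NALM-6 media library were the 2 that stood apart, and the groups of each line did not overlap. The line difference was 2.47 (SE 0.48, adjusted p = 0.014) with all libraries and 1.82 (adjusted p = 6.05e-05) without the 2, and the call was not made by edgeR (adjusted p = 0.0685). TP53I3, a quinone oxidoreductase named for its induction by p53, had 46.4, 51.4 and 68.2 CPM in REH CSF and 10.1, 7.67 and 6.88 CPM in REH media. In NALM-6 it stayed within 9.32 to 11.6 CPM in CSF and 5.17 to 12.8 CPM in media, and these 2 groups overlapped. Its line difference was 2.18 (SE 0.39, adjusted p = 0.00912), and 1.68 without the 2 libraries, with an adjusted p of 0.0744 in edgeR.

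Other called p53 targets expressed in both lines had smaller line differences. PLK3, a stress kinase, had a mean of 76.8 ± 1.18 CPM in REH CSF and 10.1 ± 1.43 CPM in REH media, and 52.5 ± 2.87 CPM in NALM-6 CSF and 15.0 ± 2.65 CPM in NALM-6 media (SD, n = 3 each). Its line difference was 1.07 (adjusted p = 0.0173), and 4 of the 12 fits that left out a single library lost the call (adjusted p up to 0.0596). SESN2, a sestrin that restrains the growth kinase mTORC1, had a line difference of 0.72 (SE 0.17, adjusted p = 0.0393), with 190 ± 13.7 CPM in REH CSF, 27.4 ± 0.83 CPM in REH media, 118 ± 2.97 CPM in NALM-6 CSF and 28.3 ± 2.98 CPM in NALM-6 media. DDB2 (0.83, adjusted p = 0.0464), a sensor of ultraviolet damage, and TRIAP1 (1.58, adjusted p = 0.0454), a small inhibitor of apoptosis, were close to the threshold. The calls of SESN2, DDB2 and TRIAP1 were lost in 10, 9 and 9 of the 12 fits without a single library, with adjusted p up to 0.118, 0.14 and 0.116. DDB2 and TRIAP1 were also not called by edgeR (adjusted p = 0.206 and 0.156) or under median-of-ratios, TMM or quantile scaling. TRIAP1 had a line difference of 1.03 without the 2 libraries. Like FDXR and TP53I3, they are known for roles in repair, metabolism and cell survival.

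CDKN1A and MDM2 did not go with these targets. CDKN1A encodes the inhibitor p21, which holds cyclin-dependent kinases. CDKN1A had 526, 604 and 648 CPM in REH CSF and 124, 124 and 123 CPM in REH media, against 1359, 1307 and 1307 CPM in NALM-6 CSF and 158, 161 and 150 CPM in NALM-6 media. It rose in both lines and was lower in REH, with a line difference of -0.83 (SE 0.16, adjusted p = 0.0124) that kept its call in each fit without a single library (adjusted p up to 0.0498). The call was lost under median-of-ratios and TMM scaling and with edgeR (-0.64, adjusted p = 0.293) and DESeq2. MDM2, the ubiquitin ligase that removes p53, had 341 ± 84.4 CPM in REH CSF and 269 ± 5.62 CPM in REH media, against 740 ± 15.0 CPM in NALM-6 CSF and 171 ± 85.6 CPM in NALM-6 media. Its line difference was -1.96 (adjusted p = 0.0659) with all libraries and passed the test without the 2 (-1.22, adjusted p = 9.24e-06). BAX, a pore-forming inducer of apoptosis, went the other way, with 1.62 (adjusted p = 0.0769) and, without the 2, 1.0 (adjusted p = 0.00032).

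ITGB2, SDC1 and SULF2 were among the 12 largest positive line differences of genes expressed in both lines. ITGB2, the beta chain of the leukocyte integrins, had 89.8, 115 and 106 CPM in REH CSF and 16.3, 15.1 and 13.5 CPM in REH media. It had 55.5, 52.7 and 51.6 CPM in NALM-6 CSF and 27.8, 35.2 and 31.9 CPM in NALM-6 media. ITGB2 was lower in REH than in NALM-6 in media and higher in CSF, with no overlap of groups in either medium, and its line difference was 1.97 (SE 0.20, adjusted p = 0.00032). Of 20 measured integrins and adhesion genes, 2 were higher (ITGAM and ITGB2) and 2 lower in REH (ICAM1 and CD44), and 2 were higher and 4 lower without the 2 libraries. Over all genes tested, 3.03% were higher and 1.2% lower, and 7.96% and 7.34% without the 2. SDC1, the plasma-cell proteoglycan CD138, had 26.8, 32.1 and 31.0 CPM in REH CSF, 2.06, 2.88 and 2.22 CPM in REH media, 78.6, 77.2 and 75.9 CPM in NALM-6 CSF and 32.9, 35.2 and 33.4 CPM in NALM-6 media. Its line difference was 2.03 (SE 0.18, adjusted p = 0.000151). SULF2, which trims heparan sulfate, had 8 reads over the 3 REH media libraries and 24.0, 22.2 and 27.7 CPM in REH CSF, against 22.0, 17.6 and 19.8 CPM in NALM-6 CSF and 3.68, 1.91 and 1.18 CPM in NALM-6 media. The CSF libraries of the lines lay next to each other without overlap, and the SULF2 line difference was 1.81 (SE 0.33, adjusted p = 0.00965). It was 0.75 to 5.30 over all alternatives, since REH media lay near 0, and it was called in each.

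PDLIM1 and SLC2A5 rose in REH and had no called response in NALM-6. PDLIM1, an adaptor of actin stress fibers, had 107, 113 and 149 CPM in REH CSF and 32.2, 31.4 and 28.9 CPM in REH media. In NALM-6 the levels were 1347, 1331 and 1348 CPM in CSF and 2154, 1417 and 1274 CPM in media, so the media library NALM-6 media 1 was the highest. The line difference of PDLIM1 was 2.18 (SE 0.28, adjusted p = 0.00112) and 1.81 without the 2 libraries. SLC2A5, the fructose transporter GLUT5, averaged 22.8 ± 2.29 CPM in REH CSF and 6.16 ± 0.35 CPM in REH media, and 40.7 ± 0.68 CPM in NALM-6 CSF and 53.6 ± 9.14 CPM in NALM-6 media (SD, n = 3 each), with a line difference of 2.1 (SE 0.20, adjusted p = 0.000204). KANK3 (2.09), RAB17 (2.01), IGFBP4 (1.96) and ACTA2 (1.81) completed the 12 largest. KANK3 is a cytoskeletal protein, RAB17 a small GTPase of membrane traffic, IGFBP4 a binder of insulin-like growth factors and ACTA2 smooth muscle actin. IGFBP4 lost its call in 5 of the 12 fits without a single library (adjusted p up to 0.0617), under median-of-ratios and TMM scaling and in edgeR (adjusted p = 0.0955), as did ACTA2 in edgeR (adjusted p = 0.151). ACTA2 overlaps the p53 target FAS on the other strand, TP53I3 overlaps FAM228B, SULF2 overlaps NCOA3, KANK3 overlaps RPS28 and ITGB2 has an antisense gene. Other named genes also overlap protein-coding genes on the other strand. Among them are MDM2 with the gene CPM, TRIAP1 with AL021546.1, PLK3 with TCTEX1D4, LRRC41 with RAD54L, MAP1LC3B with FBXO31 and WARS with WDR25. The strand setting of the counting is not given in the sources used here, so reads of these pairs cannot be told apart.

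DDIT4, PTPN6 and TNFRSF1B were also higher in REH. DDIT4, which inhibits mTORC1 and is induced by glucocorticoids and by the integrated stress response, had 286 ± 21.3 CPM in REH CSF and 42.6 ± 1.25 CPM in REH media, against 230 ± 3.94 CPM in NALM-6 CSF and 86.5 ± 20.6 CPM in NALM-6 media. It rose in both lines and by more in REH (line difference 1.28, SE 0.24, adjusted p = 0.0109). With SESN2 it was 1 of 2 called members of the 26 measured genes of the integrated stress response, both higher in REH, and 6 were higher and 0 lower without the 2 libraries. The share called, 7.69%, was near the 4.23% of all genes tested, of which 7.96% were higher and 7.34% lower without the 2 libraries. PTPN6, the phosphatase SHP-1 that dampens antigen receptor signals, had 138 ± 19.0 CPM in REH CSF and 73.4 ± 3.31 CPM in REH media, and 133 ± 2.06 CPM in NALM-6 CSF and 178 ± 17.8 CPM in NALM-6 media. This gave a line difference of 1.31 (SE 0.19, adjusted p = 0.00246). PTPN6 was the 1 called gene of 20 in pre-B receptor signaling (5%), and 1 was higher and 4 lower without the 2 libraries. TNFRSF1B, the second TNF receptor, was higher in REH by 0.97 (SE 0.19, adjusted p = 0.0149), with a call lost in 3 of the 12 fits without a single library (adjusted p up to 0.0577), under quantile normalization and in edgeR (adjusted p = 0.0789).

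**Figure D3:**
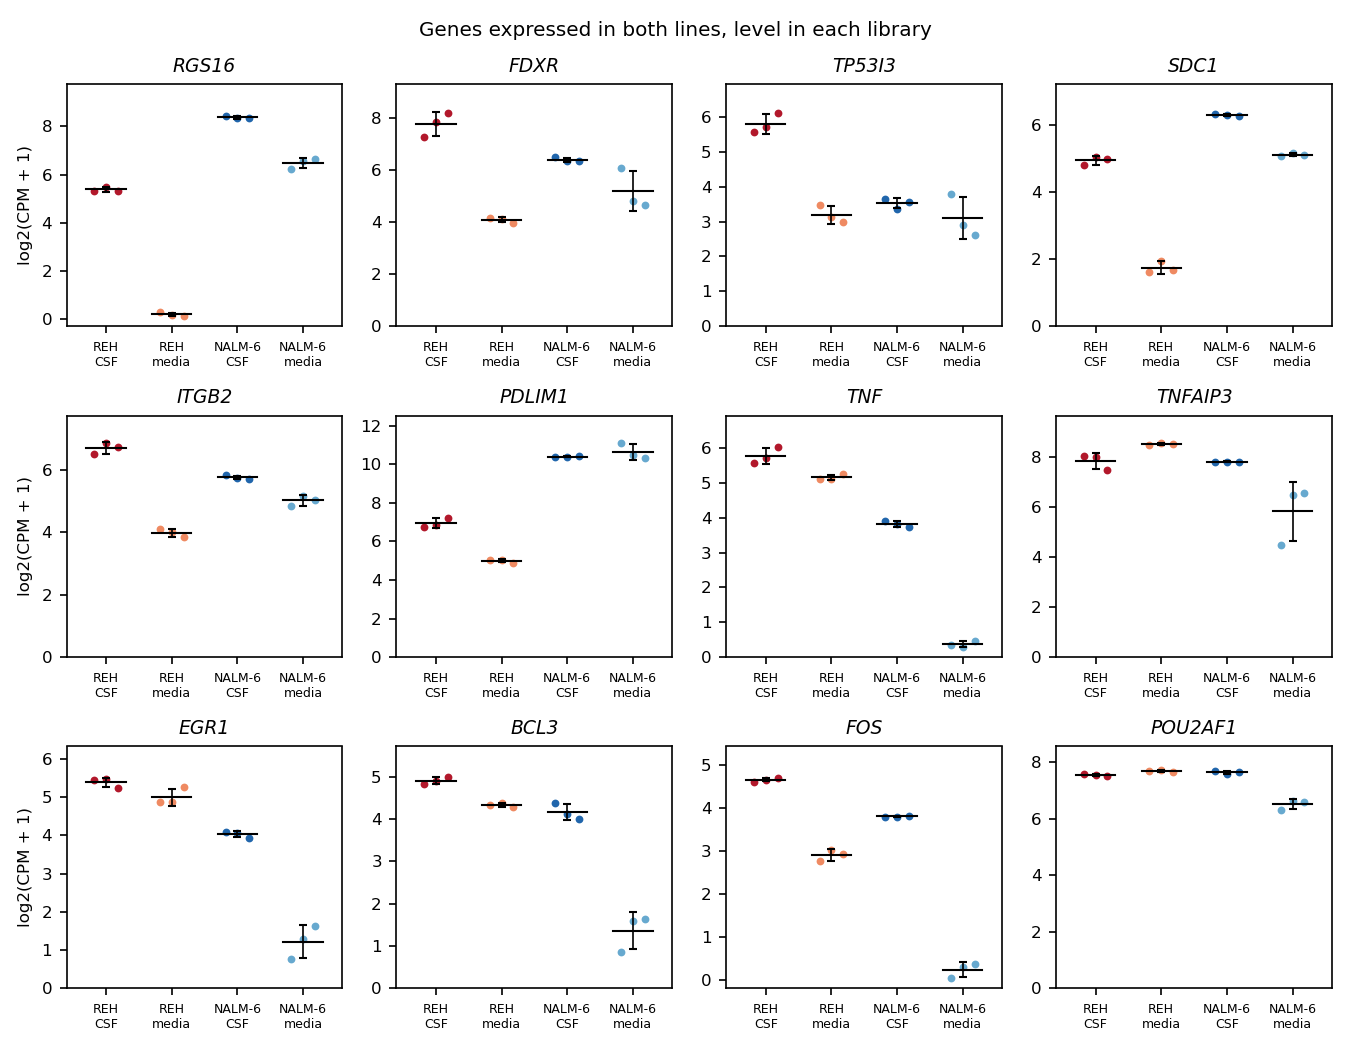
Level in log2(CPM + 1) (y axis) of 12 genes expressed in both lines, in each library of REH CSF, REH media, NALM-6 CSF and NALM-6 media (x axis). Points are libraries, horizontal lines are means and bars are SD (n = 3). RGS16, FDXR, TP53I3, SDC1, ITGB2 and PDLIM1 differ more between CSF and media in REH, while TNF, TNFAIP3, EGR1, BCL3, FOS and POU2AF1 differ more in NALM-6.

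The genes lower in REH were led by TNF and by NF-kB targets. TNF (chr6:31575567-31578336), the cytokine that activates NF-kB and is itself an NF-kB target, had 47.1, 52.0 and 64.2 CPM in REH CSF and 33.7, 33.8 and 37.3 CPM in REH media. NALM-6 had 14, 13.2 and 12.4 CPM in CSF and 0.275, 0.216 and 0.377 CPM in media. All 3 NALM-6 media libraries were near 0 (29 reads in all), whereas both REH groups were above all NALM-6 libraries. The line difference was -2.85 (SE 0.19, adjusted p = 3.31e-05), from a response of 0.61 in REH and 3.46 in NALM-6, and both responses were called. In edgeR, TNF had a line difference of -4.70, and over all alternatives it was -4.96 to -1.22 and called in each. In CPM the rise was larger in REH, 19.5 against 12.9 CPM, so the larger NALM-6 response is one of ratios. This held for 5 of the 38 genes, TNF, FOS, RHOB, ZIK1 and PLXNB2.

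TNFAIP3, which encodes the NF-kB inhibitor A20, had 263, 251 and 177 CPM in REH CSF and 354, 378 and 360 CPM in REH media. It had 224, 218 and 223 CPM in NALM-6 CSF and 21.2, 87.6 and 92.5 CPM in NALM-6 media. The NALM-6 response was called (1.97, adjusted p = 0.0175) and the REH response was not (-0.68, adjusted p = 0.426), and the lowest libraries, REH CSF 3 and NALM-6 media 1, were the 2 that stood apart. This gave a line difference of -2.65 (SE 0.63, adjusted p = 0.0426) and lost its call in 9 of the 12 fits without a single library, those without any of the 6 REH or 3 NALM-6 CSF libraries (adjusted p up to 0.107). TNFAIP3 was also not called by edgeR (-2.33, adjusted p = 0.0532). Without the 2 libraries together it was -1.79 (adjusted p = 9.50e-08). The promoter of TNFAIP3 is shown because it was the only promoter with either of 2 NF-kB motifs searched among the 25 genes lower in REH that matched RefSeq. The 250 bases before the start (GRCh38.p14, chr6:137867009-137867258, plus strand) hold GGAAAGTCCC, a match to the first NF-kB motif on the reverse strand, in capitals, 67 bases before the start.
TNFAIP3: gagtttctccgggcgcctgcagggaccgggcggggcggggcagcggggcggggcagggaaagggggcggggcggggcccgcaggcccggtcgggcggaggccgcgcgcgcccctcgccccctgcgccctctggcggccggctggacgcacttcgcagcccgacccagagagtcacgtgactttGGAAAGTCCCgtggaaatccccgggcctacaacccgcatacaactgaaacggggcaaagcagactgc
For comparison, the same stretch before TNFRSF1B (chr1:12166741-12166990, plus strand), a TNF pathway gene higher in REH, holds TTTCGCTTTC, a match to the interferon-stimulated response element (ISRE) on the reverse strand, in capitals, 10 bases before the start.
TNFRSF1B: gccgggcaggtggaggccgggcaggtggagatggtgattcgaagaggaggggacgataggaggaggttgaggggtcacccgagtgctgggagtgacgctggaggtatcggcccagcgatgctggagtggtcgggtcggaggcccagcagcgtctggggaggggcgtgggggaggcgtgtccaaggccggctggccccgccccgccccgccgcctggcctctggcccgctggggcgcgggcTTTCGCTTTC

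Motifs were searched on both strands in windows of 250 bases before to 50 after the start, in the 46 of 56 higher and 25 of 32 lower protein-coding genes that matched. The first NF-kB motif was in 1 of the 46 higher and in 1 of the 25 lower promoters (2.17% and 4%), and in 0.533% of the 7506 matched promoters of tested protein-coding genes expressed in both lines. A second NF-kB motif was in 0 of 46 higher and 0 of 25 lower promoters, against 0.426% of all. The ISRE was in 5 of 46 higher and 0 of 25 lower promoters, against 2.9% of all, and the AP-1 motif TGANTCA was in 0 of 46 and 1 of 25, against 3.49%. CCAAT was in 43.5% of the higher and 32% of the lower promoters, against 38.1%. A spaced p53 motif was in 0 of 46 and 0 of 25, against 0.147%. This motif was a fixed set of letters at a single spacing, which p53 sites need not match. With 0.147% of all promoters matching, a count of 0 was likely in sets this small. The search therefore cannot tell whether these promoters hold p53 sites, and nothing is read from it. All the motif counts above are counts of letters in short windows, and the share of a single promoter in such small sets is large.

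BCL3 and TRAF1 rose more in NALM-6, and the REH response was called for TRAF1 (0.58, adjusted p = 0.0147) and not for BCL3 (0.58, adjusted p = 0.0824). BCL3, a nuclear partner of the NF-kB subunits p50 and p52, had 27.5, 28.8 and 30.9 CPM in REH CSF and 19.1, 19.9 and 18.4 CPM in REH media, against 19.8, 16.4 and 15.1 CPM in NALM-6 CSF and 0.825, 2.03 and 2.1 CPM in NALM-6 media. It had a line difference of -2.23 (SE 0.28, adjusted p = 0.00101). TRAF1, an adaptor of TNF receptors, averaged 7.90 ± 1.35 CPM in REH CSF, 4.91 ± 0.45 CPM in REH media, 9.0 ± 0.60 CPM in NALM-6 CSF and 1.11 ± 0.19 CPM in NALM-6 media, with a line difference of -1.66 (SE 0.19, adjusted p = 0.00062). ICAM1, a ligand of the leukocyte integrins, had 13.9 ± 1.46 CPM in REH CSF and 7.15 ± 0.25 CPM in REH media, against 60.1 ± 2.34 CPM in NALM-6 CSF and 12.7 ± 1.17 CPM in NALM-6 media (line difference -1.30, SE 0.17, adjusted p = 0.00145). ICAM1 was not called under quantile normalization (-1.01, adjusted p = 0.0617). CD40, a TNF receptor of B cells that lies between the classes, had a line difference of -1.60 (adjusted p = 0.000698) and -4.78 in edgeR, and with a pseudocount of 5 it was not called. Over the list, 8 of 27 measured NF-kB subunits and targets were lower in REH and 3 higher (CCL3, CXCL8 and RGS1), with a median of -0.56, against -0.14 for all genes. The median was -0.34 under median-of-ratios scaling, -0.40 under TMM scaling and -0.25 under quantile normalization. Without the 2 libraries the counts were 16 lower and 4 higher, and with edgeR 6 lower and 0 higher. Over all genes tested, 1.2% were lower with all libraries and 7.34% without the 2.

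EGR1 and FOS, which are immediate early genes, were lower in REH as well. EGR1, a zinc finger factor induced by serum and MAP kinase signals, had 43.0, 43.2 and 37.1 CPM in REH CSF and 28.3, 28.4 and 37.3 CPM in REH media, 2 groups that overlapped. In NALM-6 it had 15.9, 15.8 and 14.3 CPM in CSF and 0.688, 1.45 and 2.07 CPM in media, with no overlap. It had a line difference of -2.42 (SE 0.29, adjusted p = 0.000783). FOS, a subunit of AP-1, had 23.7, 24.5 and 25.2 CPM in REH CSF and 5.86, 7.21 and 6.61 CPM in REH media, against 13.0, 13.0 and 13.2 CPM in NALM-6 CSF and 0.0344, 0.246 and 0.296 CPM in NALM-6 media. It rose in both lines, with a line difference of -1.81 (SE 0.17, adjusted p = 0.000203). With NALM-6 media near 0, FOS was -4.01 in edgeR and -4.01 to -0.45 over all alternatives, and called in each. Of the 22 measured AP-1 and immediate early genes, 6 were lower and 0 higher in REH in limma, 9 had an unadjusted p under 0.05, and without the 2 libraries 8 were lower and 2 higher. Under each of the 3 rescalings 1 was higher, and with edgeR 2 were lower and 1 higher. Among 13 MAP kinase feedback genes, 4 were lower in REH (DUSP5, DUSP10, PHLDA1 and SPRY4), and 5 were lower and 1 higher without the 2 libraries. Only 7 of the 13 were expressed in both lines, DUSP5 was silent in REH, and edgeR called 0 higher and 1 lower. For all genes tested the shares were 1.2% lower and 3.03% higher, and 7.34% and 7.96% without the 2. PHLDA1 (-1.24, SE 0.27, adjusted p = 0.0262), a pleckstrin homology protein, lost its call in 8 of the 12 fits without a single library (adjusted p up to 0.079).

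The remaining large negative differences were of several kinds. PIF1, a DNA helicase, was the only gene of the 38 with called falls in both lines, to 3.29, 4.27 and 3.97 CPM in REH CSF, against 43.9, 44.8 and 41.7 CPM in REH media, and to 14.1, 8.84 and 12.1 CPM in NALM-6 CSF, against 39.4, 30.0 and 26.0 CPM in NALM-6 media. That made a line difference of -1.83 (SE 0.27, adjusted p = 0.00273), and edgeR did not call it (adjusted p = 0.0715). POU2AF1, a B-cell coactivator of octamer factors, had 192, 183 and 181 CPM in REH CSF and 203, 207 and 200 CPM in REH media, against 203, 192 and 197 CPM in NALM-6 CSF and 77.6, 98.2 and 95.3 CPM in NALM-6 media. Only NALM-6 media stood below the other groups, and the line difference was -1.26 (SE 0.17, adjusted p = 0.0015). MAP1LC3B, the autophagosome protein LC3B, had a line difference of -1.03 (SE 0.17, adjusted p = 0.00458), with 114 ± 12.6 CPM in REH CSF and 84.6 ± 2.38 CPM in REH media, against 276 ± 5.62 CPM in NALM-6 CSF and 100.5 ± 5.60 CPM in NALM-6 media. It was not called under median-of-ratios or TMM scaling, nor with edgeR (adjusted p = 0.145).

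Other calls in genes lower in REH were near the threshold. PTPRK (-1.96, adjusted p = 0.0454), a receptor phosphatase, SLC30A1 (-1.92, adjusted p = 0.0415), a zinc exporter, EPB41L1 (-1.69, adjusted p = 0.0203), a membrane skeleton protein, CLEC2D (-1.65, adjusted p = 0.0314), a lectin-like ligand of an NK cell receptor, and LRRC41 (-1.64, adjusted p = 0.0461), a leucine-rich repeat protein, had their lowest NALM-6 media level in NALM-6 media 1. SLC30A1, for example, had 49.4, 46.5 and 29 CPM in REH CSF and 38.6, 42.2 and 40.4 CPM in REH media, against 23.2, 24.6 and 23.8 CPM in NALM-6 CSF and 2.65, 6.74 and 8.86 CPM in NALM-6 media. Their calls were lost in 8, 10, 5, 9 and 9 of the 12 fits without a single library, with adjusted p up to 0.13, 0.108, 0.0613, 0.0886 and 0.116. PTPRK and SLC30A1 were also not called by edgeR (adjusted p = 0.0706 and 0.0598). Without the 2 libraries all 5 of these genes were called, with line differences of -1.26, -1.27, -1.24, -1.18 and -1.17. SOCS2 (-1.29, adjusted p = 0.0358), an inhibitor of JAK and STAT signaling, WARS (-0.71, adjusted p = 0.0211), the tryptophan tRNA synthetase, YPEL5 (-0.79, adjusted p = 0.0463), a subunit of a ubiquitin ligase, and AURKA (-0.74, adjusted p = 0.0345), a mitotic kinase, lost theirs in 9, 8, 9 and 9 of these fits, with adjusted p up to 0.0991, 0.0759, 0.136 and 0.108. WARS, YPEL5 and AURKA were also not called under median-of-ratios, TMM or quantile scaling, nor by edgeR.

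The calls among mitotic genes depended on the libraries. Of 35 measured genes of mitosis and the G2/M transition, PIF1 and AURKA were lower in REH and 0 were higher, and 13 had an unadjusted p under 0.05. Without the 2 libraries 20 were lower in REH and 0 higher, with a median line difference of -0.40, against -0.0002 for all genes. The share of all genes tested that was lower in REH was 1.2% with all libraries and 7.34% without the 2. CDC20, which activates the anaphase-promoting complex, had 84.2 ± 15.9 CPM in REH CSF and 305 ± 5.11 CPM in REH media, against 93.2 ± 1.19 CPM in NALM-6 CSF and 230 ± 24.6 CPM in NALM-6 media. This gave a line difference of -0.57 (adjusted p = 0.207) with all libraries and -0.79 (adjusted p = 0.000207) without the 2. CENPE, a kinetochore motor, had -2.0 (adjusted p = 0.142) and -1.05 (adjusted p = 0.000228). The genes of DNA replication did not show this split, with 0 of 40 called by limma or edgeR, 1 by DESeq2, 3 at an unadjusted p under 0.05, and 5 higher and 4 lower without the 2 libraries.

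Genes of the B lineage were similar in this respect. POU2AF1 was the 1 called gene of 22 B-lineage transcription factors, and without the 2 libraries 10 were lower in REH and 1 higher. With edgeR on all libraries 1 was higher and 1 lower. Of all genes tested, 4.23% were called with all libraries, and 7.34% were lower and 7.96% higher without the 2. PAX5, the factor that commits cells to the B lineage, had 360 ± 160 CPM in REH CSF and 688 ± 46.3 CPM in REH media, against 850 ± 12.2 CPM in NALM-6 CSF and 718 ± 440 CPM in NALM-6 media. It had a line difference of -1.59 (adjusted p = 0.297) with all libraries, -0.86 without NALM-6 media 1 alone and -0.41 (adjusted p = 0.00867) without the 2. Among 17 surface antigens of B-cell leukemia, PTPRC, MS4A1 and CD44 were lower in REH, and 9 were lower and 2 higher without the 2 libraries. Only 10 of the 17 were expressed in both lines, PTPRC lies between the classes, and edgeR called 1 higher and 1 lower. CD38, an ectoenzyme and antibody target, had 204 ± 60.1 CPM in REH CSF and 305 ± 13.5 CPM in REH media, against 221 ± 5.75 CPM in NALM-6 CSF and 113 ± 46.4 CPM in NALM-6 media, with a line difference of -1.69 (adjusted p = 0.069) and, without the 2, -1.04 (adjusted p = 6.34e-05). MS4A1, the antigen CD20, was silent in REH and reached 4.12 ± 0.34 CPM in NALM-6 CSF, against 0.55 ± 0.45 CPM in NALM-6 media (line difference -1.69, adjusted p = 0.00576), and edgeR did not call it (adjusted p = 0.318).

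**Figure D4:**
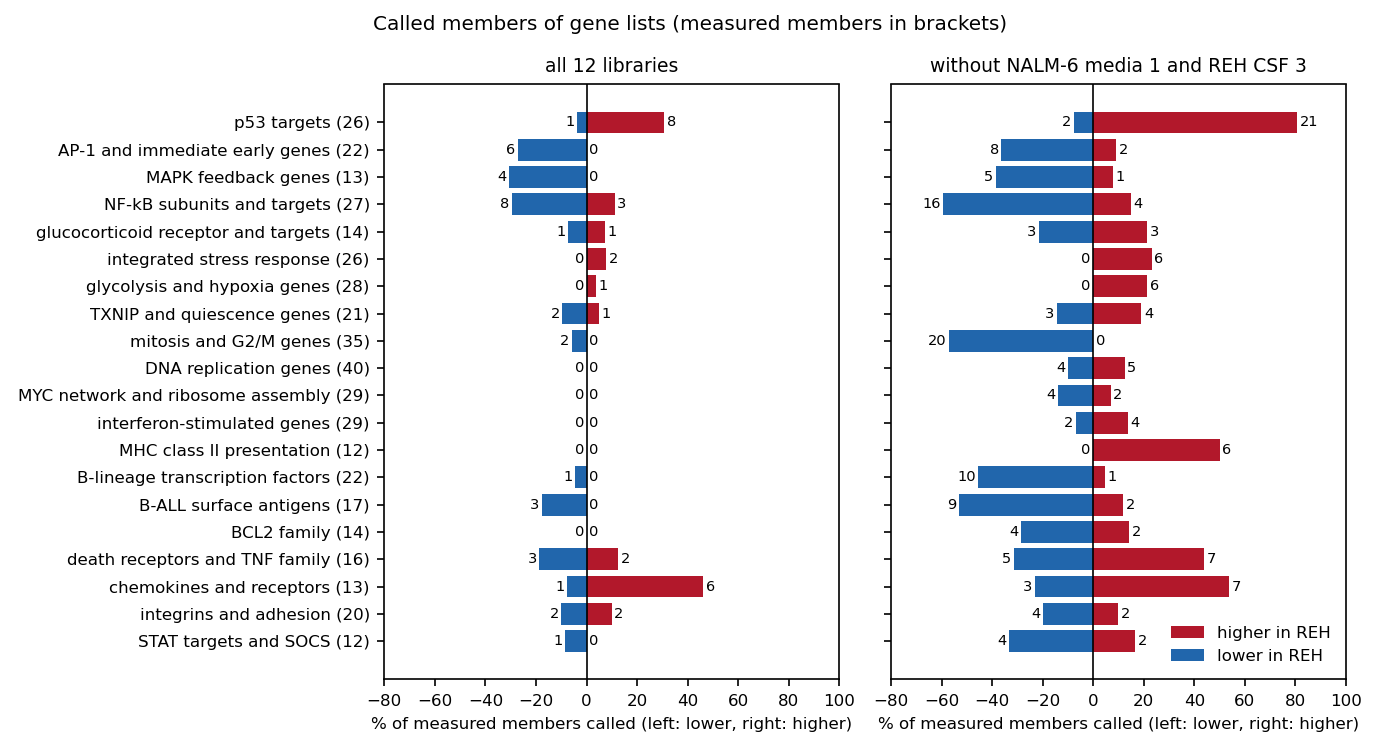
Share of measured members of 20 gene lists called higher in REH (red, right) or lower in REH (blue, left), with all 12 libraries (left panel) and with REH CSF 3 and NALM-6 media 1 dropped (right panel), with numbers of genes at the bars. The lists shown have at least 3 calls on the left or 6 on the right. The p53 targets have 8 and 21 genes higher, and the mitosis list has 2 and 20 genes lower. Over all genes tested, 3.03% and 7.96% were higher and 1.2% and 7.34% lower.

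The following lists, apart from the chemokines, had 0 or 1 called gene with all libraries. Over all genes tested 4.23% were called, and without the 2 libraries 7.96% were higher and 7.34% lower. The folate and methotrexate list had 1 of 19 measured genes called, FOLR2, a folate receptor that was higher in REH, and 2 higher and 1 lower without the 2 libraries. No cytosolic ribosomal protein gene of 40 was called by limma, edgeR or DESeq2, with 1 at an unadjusted p under 0.05, and limma without the 2 libraries called 5, all higher in REH. Their median line difference was 1.0 with all libraries and 0.22 without the 2, which are the libraries with the largest share of such reads in their groups. Of 12 genes of MHC class II presentation, 0 were called by limma or edgeR, 2 by DESeq2 and 4 at an unadjusted p under 0.05, and 6 were higher in REH without the 2 libraries. Of 21 genes of cholesterol synthesis, 0 were called by limma or edgeR, 3 by DESeq2 and 3 at an unadjusted p under 0.05, with 5 lower in REH without the 2 libraries. Chemokines and their receptors had the highest share called of the 47 lists, 7 of 13 (53.8%), with 6 higher and 1 lower in REH, and 7 higher and 3 lower without the 2 libraries. Only 4 of the 13 were expressed in both lines, and edgeR called 0 higher and 1 lower.

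The genes silent in NALM-6 and induced in REH included markers of other lineages. PLK2 (chr5:58453982-58460260), a kinase induced by p53, had 141, 129 and 124 CPM in REH CSF and 8.83, 8.37 and 8.07 CPM in REH media. NALM-6 held 11 reads over the 3 CSF libraries and 0 reads over the 3 media libraries. That made a line difference of 3.64 (SE 0.17, adjusted p = 2.60e-06), and it describes the REH response, since the ratio in NALM-6 cannot be set with 0 reads. MUC5AC, CXCR2 and CCL3L1 also had 0 reads in NALM-6 media. MUC5AC, a secreted mucin, had 7.94, 10.8 and 15.7 CPM in REH CSF and 3 reads in all of REH media. CXCR2, a chemokine receptor of neutrophils, had 15.9, 13.6 and 12 CPM in REH CSF and 18 reads in REH media. DHRS3, a retinaldehyde reductase, had 13.7, 17.7 and 25.8 CPM in REH CSF and 55 reads in REH media, and CCL3L1, a chemokine with near-identical copies whose reads may be split, had 8.73, 8.88 and 14.9 CPM and 23 reads. In NALM-6 these 4 genes had 5, 18, 40 and 2 reads over the CSF libraries and 0, 0, 8 and 0 over the media libraries. Of 5 neutrophil markers CXCR2 was called, and of 8 monocyte and macrophage markers CSF1R and ITGAM, all higher in REH. MPO and AIF1, the members of these lists with the highest levels, were expressed and not called. FCGR3B, ELANE, S100A8 and S100A9 had no read in any library.

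Of the 68 called genes silent in REH, 65 were lower in REH, and TNFRSF9 led them. TNFRSF9, the co-stimulatory receptor 4-1BB and an NF-kB target, had 4.95, 5.23 and 5.06 CPM in NALM-6 CSF and 0 reads in NALM-6 media, and 10 reads in REH CSF and 0 in REH media. This gave a line difference of -2.43 (SE 0.12, adjusted p = 3.17e-06). RGS8, a regulator of G protein signaling, DUSP5, a phosphatase of ERK kinases, TP73, a p53 relative, and IFNLR1, the receptor of interferon lambda, followed. Their NALM-6 levels were 8.44 ± 1.22, 7.86 ± 1.0, 5.27 ± 0.24 and 7.32 ± 1.84 CPM in CSF and 1.15 ± 0.18, 1.06 ± 0.29, 0.50 ± 0.16 and 1.0 ± 0.75 CPM in media (SD, n = 3 each). In REH they had 4, 6, 8 and 17 reads in CSF and 0, 0, 0 and 12 reads in media. Line differences were -2.06, -2.0, -1.94 and -2.02. TP73 overlaps WRAP73 and antisense genes.

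On whole reads, edgeR called 18 of the genes silent in NALM-6 and 4 of those silent in REH, against 311 and 68 in limma, and all 4 were higher in REH, against 3 of 68. A few reads in the silent line then stand for a large ratio. The 10 genes named above were not called by edgeR, and in edgeR PLK2, RGS8, DUSP5 and TP73 changed sign. The calls in these classes are therefore calls on the log2(CPM + 1) scale, where a change of a gene that stays under 1 CPM is small by construction.

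**Figure D5:**
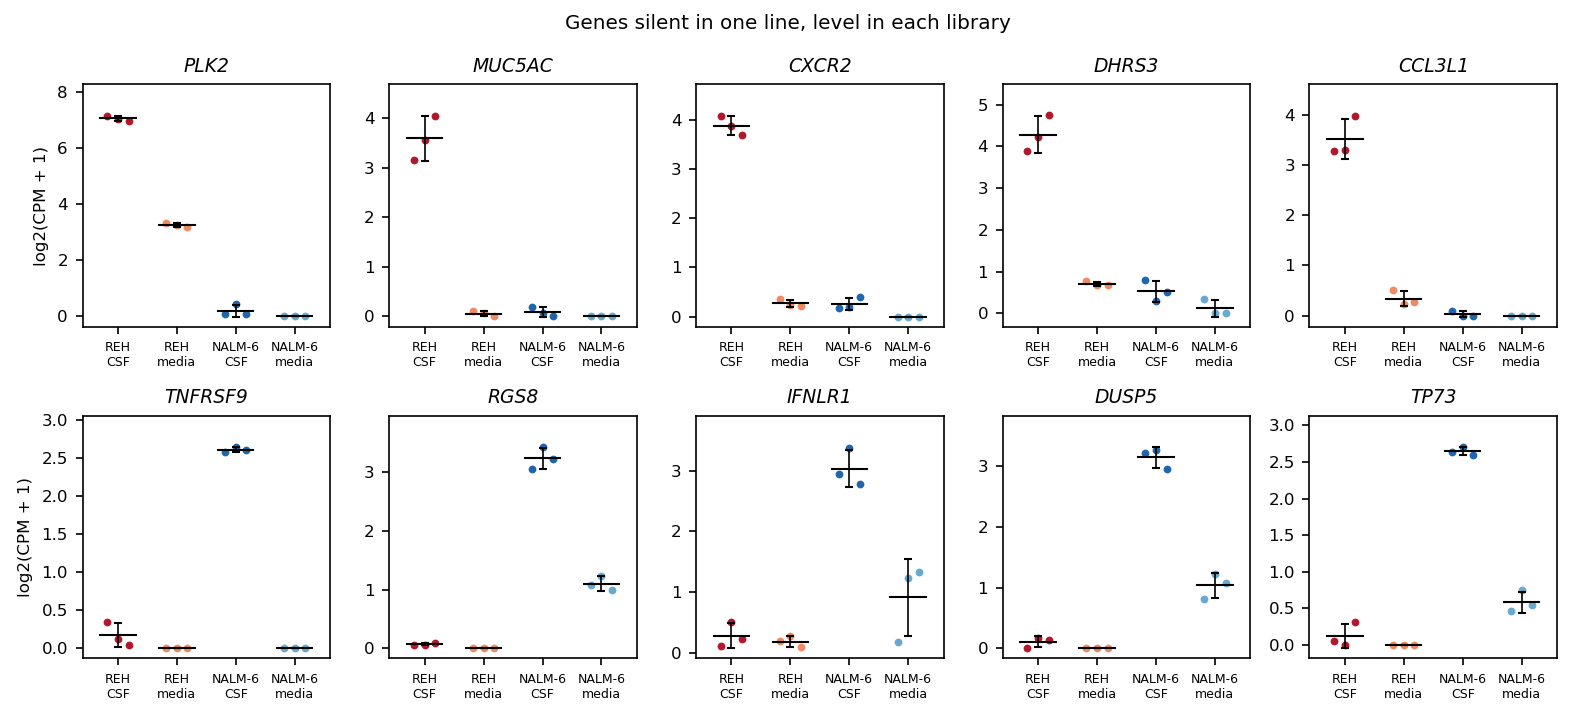
Level in log2(CPM + 1) (y axis) of the 5 genes silent in NALM-6 and the 5 silent in REH with the largest line differences, in each library of REH CSF, REH media, NALM-6 CSF and NALM-6 media (x axis). Points are libraries, horizontal lines are means and bars are SD (n = 3). In the silent line all 6 libraries lie under 1 CPM for PLK2, MUC5AC, CXCR2, DHRS3, CCL3L1 and the 5 genes silent in REH.

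Between the classes lay the gene with the largest negative line difference of all genes tested, ARRDC4 (chr15:97960698-97973838), an alpha-arrestin related to TXNIP. This gene and the following were chosen after their values were seen. ARRDC4 had 5.09, 4.74 and 2.59 CPM in REH CSF and 2.65, 2.15 and 2.68 CPM in REH media, against 195, 194 and 196 CPM in NALM-6 CSF and 1.41, 8.04 and 6.65 CPM in NALM-6 media. The REH groups overlapped, and all 3 NALM-6 CSF libraries were far above the rest. That made a line difference of -4.63 (SE 0.59, adjusted p = 0.00107), and -3.80 without the 2 libraries. PTPRC, the phosphatase CD45, had 350, 305 and 160 CPM in REH CSF and 319, 346 and 352 CPM in REH media, against 2.22, 2.17 and 2.84 CPM in NALM-6 CSF and 0.0344, 0.216 and 0.35 CPM in NALM-6 media. It had a line difference of -1.90 (adjusted p = 0.012) and -3.73 in edgeR, and with a pseudocount of 5 it was not called.

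The only genes of the 607 with called responses of opposite direction were EFEMP1 and AC107959.1. EFEMP1, an extracellular matrix glycoprotein, fell in REH to 79.2, 78.0 and 70.8 CPM in CSF, against 121, 120 and 115 CPM in media, and rose in NALM-6 to 3.95, 3.17 and 3.26 CPM in CSF, against 0.55, 0.954 and 1.53 CPM in media. The responses were -0.63 in REH (adjusted p = 0.0292) and 1.17 in NALM-6 (adjusted p = 0.0015), and the line difference was -1.81 (SE 0.24, adjusted p = 0.0015). AC107959.1, an antisense RNA gene that overlaps RHOBTB2 and PEBP4, had 7.17 ± 0.65 CPM in REH CSF and 10.1 ± 0.22 CPM in REH media, against 5.13 ± 0.28 CPM in NALM-6 CSF and 1.58 ± 0.24 CPM in NALM-6 media (line difference -1.70, SE 0.16, adjusted p = 0.000168). GDF15, a stress cytokine and p53 target, had 18.8, 26.7 and 30.8 CPM in REH CSF and 5.61, 5.38 and 4.93 CPM in NALM-6 CSF, with 1 read in the media libraries of each line. That made a line difference of 2.04 (adjusted p = 0.000343), and edgeR did not call it (adjusted p = 0.459). FCGRT, the neonatal Fc receptor (2.13, adjusted p = 0.0041), and PIK3IP1, an inhibitor of PI3-kinase (2.0, adjusted p = 0.000967), were the other large positive ones, neither of them called by edgeR (adjusted p = 0.0727 and 0.093), with 32.6 ± 6.98 and 21.2 ± 2.1 CPM in REH CSF and 5.76 ± 0.13 and 1.77 ± 0.59 CPM in REH media. In NALM-6 their levels were 2.97 ± 0.21 and 2.21 ± 0.52 CPM in CSF and 2.71 ± 1.44 and 0.57 ± 0.12 CPM in media.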

How the data were processed

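RNA of the 12 libraries was read from one table of CPM values that the authors deposited. Per the submitters' processing notes, reads were handled with HISAT2 2.1.0, Trimmomatic 0.33, featureCounts, FastQC and edgeR on GRCh38, in an order and with settings not given in the sources used here. Every CPM value was a whole number of reads to a tolerance of 1e-06 (100% of values), and libraries held 23412869 to 37146556 reads. Gene classes and overlaps used GENCODE release 29.

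The 14364 genes that reached 1 CPM in 3 or more libraries were fitted on log2(CPM + 1), a pseudocount of 1, with limma 3.58.1 in R 4.3.3, with 4 group means, a variance trend and 8 residual degrees of freedom. The unit of the deposited values is CPM, so limma on the log scale was the main test. The recovered read counts served for edgeR 4.0.16 (quasi-likelihood) and DESeq2 1.42.0 as alternatives, and 27 alternatives were tried. P-values were adjusted by Benjamini-Hochberg over all genes tested, with a threshold of 0.05. The procedure was tested on simulated data with equal ratios of CSF to media in both lines, except for planted changes. Planted changes were mostly recovered. Of the unchanged genes, limma called 0.37% of those expressed in both lines and 20.3% of the others, and edgeR called 19 and 2 genes. The simulated ratios came from NALM-6 and rested on few reads in genes silent there, so the 20.3% is no estimate for the data.

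The members and the 47 gene lists were chosen with earlier results of these data known. Genes were named by a rule. It took protein-coding called genes whose 9 single-library differences per line did not overlap. In genes expressed in both lines these were the 12 largest each way and the 2 smallest adjusted p per list, and in silent genes the 5 largest each way. One gene that the rule took is not reported here. Another 18 genes were chosen after their values were seen, namely ARRDC4, PTPRC, EFEMP1, AC107959.1, GDF15, PIK3IP1, FCGRT, DDB2, PLK3, TRIAP1, CD40, MS4A1, MDM2, BAX, CD38, CDC20, CENPE and PAX5. Promoter sequences are from RefSeq (GRCh38.p14). Replicate libraries differed by more than counting noise, and none was merged.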

Additional observations from a re-analysis of the deposited data

Results flagged for a closer look

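The 607 genes called in the line difference were each picked out because the CSF response differed between REH and NALM-6 in a test of the difference itself (limma, 12 libraries). The values below are line differences in log2(CPM + 1), REH response minus NALM-6 response, with errors and levels in the text above. Among genes expressed in both lines, those higher in REH were RGS16 (3.29), FDXR (2.47), TP53I3 (2.18), PDLIM1 (2.18), SLC2A5 (2.1), KANK3 (2.09), SDC1 (2.03), RAB17 (2.01), ITGB2 (1.97), IGFBP4 (1.96), ACTA2 (1.81) and SULF2 (1.81), followed by TRIAP1 (1.58), PTPN6 (1.31), DDIT4 (1.28), PLK3 (1.07), TNFRSF1B (0.97), DDB2 (0.83) and SESN2 (0.72). Those lower in REH were TNF (-2.85), TNFAIP3 (-2.65), EGR1 (-2.42), BCL3 (-2.23), PTPRK (-1.96), SLC30A1 (-1.92), PIF1 (-1.83), FOS (-1.81), EPB41L1 (-1.69), TRAF1 (-1.66), CLEC2D (-1.65) and LRRC41 (-1.64), followed by ICAM1 (-1.30), SOCS2 (-1.29), POU2AF1 (-1.26), PHLDA1 (-1.24), MAP1LC3B (-1.03), CDKN1A (-0.83), YPEL5 (-0.79), AURKA (-0.74) and WARS (-0.71). In genes silent in NALM-6 the values were PLK2 (3.64), MUC5AC (3.47), CXCR2 (3.35), DHRS3 (3.17) and CCL3L1 (3.16). In genes silent in REH they were TNFRSF9 (-2.43), RGS8 (-2.06), IFNLR1 (-2.02), DUSP5 (-2.0), TP73 (-1.94) and MS4A1 (-1.69). Between the classes they were ARRDC4 (-4.63), PTPRC (-1.90), EFEMP1 (-1.81), AC107959.1 (-1.70), CD40 (-1.60), FCGRT (2.13), GDF15 (2.04) and PIK3IP1 (2.0).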

How the results depend on the processing

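The number of called genes depended on the tool and on NALM-6 media 1 and REH CSF 3. The 607 calls became 2198 without both, 4018 with library quality weights, 1471 in edgeR without both, 301 with a filter at 5 CPM and 116 in edgeR, and 411 to 995 when a single library was left out (995 without NALM-6 media 1 and 640 without REH CSF 3). Among genes expressed in both lines, the 57 higher in REH became 503, 1190, 384 and 28 under the first 3 settings and edgeR, 156 in DESeq2, 95 where 1 CPM set the class, and 31 to 146 without a single library. The 38 lower became 760, 1479 and 779 under those 3 settings, 62, 67 and 59 under median-of-ratios, TMM and quantile scaling, 183 in DESeq2, 73 at 1 CPM, and 16 to 197. The 379 calls in genes silent in one line became 646, 854 and 112, and 228 with a pseudocount of 0.25, 171 with the 5 CPM filter, 22 in edgeR, 112 in DESeq2, and 267 to 470. The 2144 REH responses became 6586, 6561 and 6391, and 1448 to 4695. The 1742 NALM-6 responses became 5865, 7180 and 5793, 1118 under quantile scaling, 3381 in DESeq2, and 865 to 2531. Among the named genes, signs changed in 5 genes silent in one line, in count models. PLK2 was -1.06 in edgeR, -0.32 in DESeq2 and -1.05 in edgeR without both libraries, RGS8 0.96, 0.35 and 0.53, and DUSP5 1.47, 0.91 and 1.22. TP73 was 1.35 in edgeR and 0.81 in DESeq2, and DHRS3 -2.25 in edgeR without both libraries. The causes were not tested. All named genes called with 12 libraries kept their call without both libraries, and of the 47 named by the rule edgeR kept 23. With the replicate number as a replicate block, 305 genes were called, 21 higher and 10 lower in genes expressed in both lines, 209 in silent genes, and 864 NALM-6 responses. Of the 47 genes named by the rule, 18 lost their call in limma with this block. Among them were DDIT4 (adjusted p = 0.0772), CDKN1A (adjusted p = 0.145) and SOCS2 (adjusted p = 0.134). The deviation of each library from its group mean was correlated between the CSF and media libraries of a line. Same-numbered libraries gave -0.462, 0.236 and -0.319 in REH and 0.356, 0.193 and 0.171 in NALM-6. Libraries of different number gave -0.319 to 0.485 in REH and -0.371 to 0.233 in NALM-6. For same-numbered libraries the signs were mixed in REH and all positive in NALM-6. The numbers were not taken to pair libraries in the main fit, and a pairing in NALM-6 cannot be told from these values. Intervals from 3 reads, 0.0808 to 0.128 CPM, limit what can be said of silent genes.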
